A study of Drosophila melanogaster with 3 samples.

Results

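The 290 tRNA genes of the fly nuclear chromosome arms were examined for nearby binding of NfI, out of 18164 annotated genes on the arms. Members were the genes of biotype tRNA in the Ensembl annotation of the dm6 genome, grouped by the amino acid in the gene symbol. The 22 tRNA genes of the mitochondrial genome were left out. A gene was counted where a peak summit, the single position the deposited list marks within a peak, lay within 500 bp of it. Summits with a transcription start site (TSS) of a protein-coding gene within 500 bp were kept apart, since their signal cannot be assigned to the tRNA gene alone.

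The study profiled NfI by chromatin immunoprecipitation sequencing (ChIP-seq) in whole embryos of a transgenic Drosophila melanogaster line, strain NfI-GFP, which stably expresses NfI with green fluorescent protein at its C terminus. Embryos of both sexes were pooled at 12 to 24 h, and no treatment, other genotype or other age is compared. The 3 libraries were biological replicates 2, 3 and 4 of a single group. The labels conflict, because "input control" appears in every description although the assay title and the antibody label name NfI ChIP-seq, and a labelled age far outside the collection window was not used. The libraries were taken here as immunoprecipitates. Whole embryos hold many cell types, so a peak does not say in which cells NfI was bound. The fusion protein comes from a transgene, and its level relative to native NfI is unknown here. The lists hold no read counts, so sequencing depth is unknown and the intervals below reflect only how many genes were counted.

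tRNA genes are transcribed by RNA polymerase III from promoters inside the gene, the A box and the B box, which are bound by the assembly factor TFIIIC. TFIIIC recruits TFIIIB, which places the polymerase just upstream of the gene, and transcription ends in a run of T. NfI belongs to the nuclear factor I family, whose vertebrate members bind the palindrome of TTGGC and GCCAA with a spacing of 5 bases, or a single TTGGC. The family is known for roles at promoters transcribed by RNA polymerase II.

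The members had the usual structure of tRNA genes. They were 71 to 186 bp long with a median of 73 bp, and 16 had an intron. All 290 had the same coordinates in the RefSeq annotation, and all 290 held the anticodon of their symbol among bases 30 to 45 of the gene. On the gene's own strand, the B box core GTTCNANNC was found in 271 of 290 genes. The A box core TNGCNNAG was found in 144 genes, and its looser form TNGNNNAG, chosen after the first count was seen, in the first 25 bases of 252. TTTT, a run of T as in the terminator, was found within 50 bp after the 3′ end of 289 genes.

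Sequences are shown first for genes that share the same letters but differ in having a summit nearby. Then follow a gene whose summit had no coding TSS nearby and the gene with the strongest summit. They were read 5′ to 3′ on the gene's strand from dm6, with the B box core and the A box core, or the looser form of the A box core where the first was not found, in capitals. The 12 copies of tRNA:Asp-GTC-1 are identical and include tRNA:Asp-GTC-1-5 at chr2L:8541761-8541832, plus strand, which had an optimal summit, with a coding TSS within 500 bp of that summit. They also include tRNA:Asp-GTC-1-7 at chr2L:8679116-8679187, plus strand, which had no summit in the optimal or pooled list. The 4 copies of tRNA:Cys-GCA-1 lie in a single cluster and include tRNA:Cys-GCA-1-3 at chr3L:3096369-3096440, plus strand. The 6 copies of tRNA:Val-CAC-2 include tRNA:Val-CAC-2-5 at chr3R:19672277-19672349, minus strand. tRNA:Val-CAC-1-1 at chr3R:17617761-17617833, plus strand, differs from them by C5T, C16T, G68A and G69A, counted from 1 at the 5′ end of the gene with the letter of tRNA:Val-CAC-2-5 first. tRNA:Gln-TTG-2-1 at chrX:3427452-3427523, minus strand, has a unique sequence and neither form of the A box core. tRNA:Tyr-GTA-1-8 at chr3R:8669081-8669174, minus strand, contains an intron and had the strongest summit of all members.
tRNA:Asp-GTC-1: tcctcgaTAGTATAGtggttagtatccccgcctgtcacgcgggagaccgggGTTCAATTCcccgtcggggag
tRNA:Cys-GCA-1: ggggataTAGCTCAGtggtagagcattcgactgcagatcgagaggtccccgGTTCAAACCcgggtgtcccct
tRNA:Val-CAC-2: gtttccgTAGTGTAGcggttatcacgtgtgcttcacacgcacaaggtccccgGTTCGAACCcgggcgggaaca
tRNA:Val-CAC-1-1: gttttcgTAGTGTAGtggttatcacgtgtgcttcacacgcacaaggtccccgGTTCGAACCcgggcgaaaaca
tRNA:Gln-TTG-2-1: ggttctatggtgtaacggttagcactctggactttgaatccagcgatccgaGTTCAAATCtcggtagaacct
tRNA:Tyr-GTA-1-8: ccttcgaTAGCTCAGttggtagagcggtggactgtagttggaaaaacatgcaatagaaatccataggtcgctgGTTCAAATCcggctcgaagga

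Windows on the plus strand, reaching 100 bp to each side of the summit, are shown for the strongest summit at a tRNA gene and for 2 of the 4 optimal summits at tRNA genes that held TTGGC on either strand, given in capitals. The first is the summit upstream of tRNA:Tyr-GTA-1-8, at chr3R:8669285-8669485. The second lies upstream of tRNA:Thr-AGT-1-4, at chr3R:16431725-16431925. The third lies upstream of tRNA:Val-CAC-1-1, at chr3R:17617295-17617495.
Summit at tRNA:Tyr-GTA-1-8: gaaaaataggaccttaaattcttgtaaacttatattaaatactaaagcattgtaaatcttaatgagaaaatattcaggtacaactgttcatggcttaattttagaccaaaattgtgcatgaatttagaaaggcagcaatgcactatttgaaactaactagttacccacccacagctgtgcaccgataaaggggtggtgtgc
Summit at tRNA:Thr-AGT-1-4: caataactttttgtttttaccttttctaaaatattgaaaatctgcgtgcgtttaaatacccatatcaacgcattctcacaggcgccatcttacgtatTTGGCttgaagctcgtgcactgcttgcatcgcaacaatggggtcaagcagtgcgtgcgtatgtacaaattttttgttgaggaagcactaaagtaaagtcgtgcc
Summit at tRNA:Val-CAC-1-1: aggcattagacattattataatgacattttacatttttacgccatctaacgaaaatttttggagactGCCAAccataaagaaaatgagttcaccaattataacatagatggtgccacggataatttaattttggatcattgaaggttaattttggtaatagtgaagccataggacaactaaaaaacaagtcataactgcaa

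Few tRNA genes had a peak of the optimal list nearby, and the strongest of those peaks also lay at promoters of protein-coding genes. The optimal list holds 5806 peaks that the authors kept by the irreproducible discovery rate (IDR), which scores the repeat of peak ranks from replicate to replicate, though a kept peak need not overlap a peak of every replicate list. It placed a summit within 500 bp of 22 of the 290 tRNA genes, 7.59% with a 95% Clopper-Pearson interval of 4.82 to 11.3%. Of all arm bases 4.12% lay that close to an optimal summit, and of the 1200 other genes of 200 bp or less, transposable elements left out, 5.58% did. The interval includes the share of the other short genes, and its lower end lies just above that of the arm bases. The 22 genes shared 15 summits at 15 separate loci, a locus being tRNA genes with gaps of 1000 bp or less. Genes that share a summit are not independent, so the interval is too narrow and does not set the members apart from arm bases. Genes also shared summits in the other lists, so the gene intervals given below are too narrow as well.

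Split by coding promoters, 10 of the genes shared 8 summits that had a coding TSS within 500 bp, and 12 shared 7 summits that had none. The 12 genes are 4.14% of the members with an interval of 2.16 to 7.12%, against 2.04% of arm bases and 2.83% of other short genes for summits of that kind. No gene had summits of both kinds. With a match required among the strongest peaks of the other replicates, the 12 genes became 2 without replicate 2, 1 without replicate 3 and 8 without replicate 4, and 1 with a match in all 3. The 22 genes became 12, 10 and 17, and 10 with all 3.

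The pooled list was deposited as peaks and background, the input to the IDR step, so an entry need not be a site of binding. It holds 30000 entries from all 3 libraries together, called peaks here, of which 9014 had a q-value of 0.01 or lower. In it, 102 genes had a summit, 35.2% with an interval of 29.7 to 41.0%. That share stood above the 19.2% of arm bases and the 17.8% of other short genes. Of these genes, 85 had a summit with no coding TSS nearby, 29.3% with an interval of 24.1 to 34.9%, against 14.3% of arm bases and 11.8% of other short genes. These 102 genes held 87 pooled summits at 74 of 174 loci. With an overlapping peak required in the lists of both other replicates, the 102 genes became 39 without replicate 2, 37 without replicate 3 and 64 without replicate 4, and the 85 became 26, 25 and 51.

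The replicates differed widely in how many tRNA genes they marked. In the full lists of 30000 peaks, 144 genes had a summit in replicate 2, 49.7% of the members, against 18.0% of arm bases and 25.1% of other short genes. Replicate 3 marked 117 genes, 40.3%, against 19.6% of arm bases and 16.2% of other short genes. Replicate 4 marked 62 genes, 21.4%, against 20.4% of arm bases and 16.9% of other short genes. The mean over replicates was 37.1% ± 14.4 (SD, n = 3). Replicates 2 and 3 stood above both backgrounds, and the interval of replicate 4 included both. Of the peaks in the full lists, 13037 in replicate 2, 8464 in replicate 3 and 5138 in replicate 4 had a q-value of 0.01 or lower. With that limit 63, 38 and 16 genes were marked, and background shares were not computed at that limit. Among the 5806 strongest peaks of each replicate, the counts were closer together. Replicate 2 marked 27 genes, 9.31%, where 4.02% of arm bases were covered. Replicate 3 marked 24 genes, 8.28%, where 4.17% of arm bases were covered. Replicate 4 marked 16 genes, 5.52%, where 4.15% of arm bases were covered. The mean was 7.70% ± 1.96 (SD, n = 3), and replicate 4 was again the lowest.

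**Figure D1:**
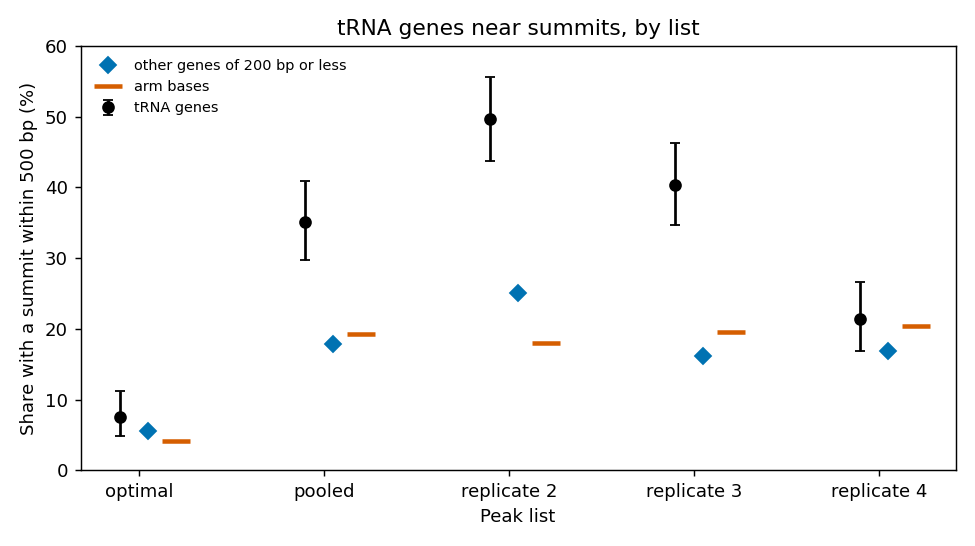
Share of the 290 tRNA genes with a summit within 500 bp in each peak list (points, with 95% Clopper-Pearson intervals), beside the share of 1200 other short genes (diamonds) and of arm bases (bars). The tRNA genes stand at 49.7% in replicate 2 and 40.3% in replicate 3, and at 21.4% in replicate 4, where the interval includes both backgrounds.

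Support for single genes followed the same order. A summit was found in all 3 full replicate lists for 33 genes, in 2 lists for 67, in a single list for 90 and in none for 100. Of the 22 genes with an optimal summit, 13 were marked in all 3 and 9 in 2. Replicate 2 alone marked 55 genes, replicate 3 alone 23 and replicate 4 alone 12. The pair of replicates 2 and 3 shared 50 genes that replicate 4 lacked, while the pair of 2 and 4 shared 6 and the pair of 3 and 4 shared 11.

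The difference between replicates was seen in clustered genes. Of the 290 genes, 105 were alone in their locus and 185 had other tRNA genes within 1000 bp, in 69 clusters of up to 7 genes. Lone genes were marked at similar rates in all lists, 29 of 105 in replicate 2, 33 in replicate 3 and 35 in replicate 4. Clustered genes were marked in 115 of 185 cases in replicate 2, which is 62.2%. Replicate 3 marked 84 of them, 45.4%, and replicate 4 marked 27, 14.6%. Replicate 4 thus had lone genes marked at 33.3%, an interval of 24.4 to 43.2%, and clustered genes at 14.6%, an interval of 9.84 to 20.5%, the opposite order to replicates 2 and 3. Genes of a cluster share summits, so the count was repeated by cluster. At least 1 gene was marked in 51 of 69 clusters in replicate 2, in 43 in replicate 3 and in 21 in replicate 4. By cluster, replicate 4 at 30.4% was close to its lone genes, and a cluster spans more bases than a lone gene. The source of this difference was not tested.

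**Figure D2:**
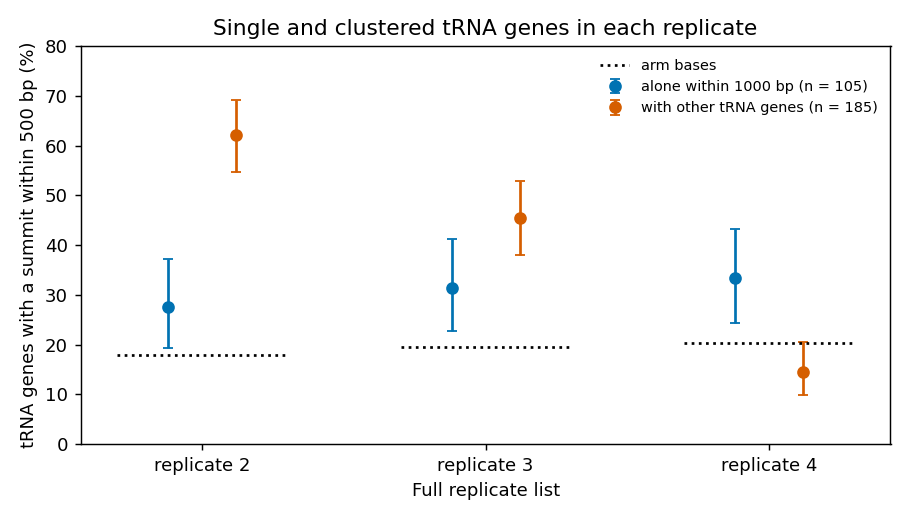
Share of tRNA genes with a summit within 500 bp in each full replicate list, for 105 genes alone in their locus and 185 genes with other tRNA genes within 1000 bp, with 95% Clopper-Pearson intervals and the share of arm bases as a dotted line. Lone genes stand between 27.6% and 33.3% in all 3 replicates, while clustered genes go from 62.2% in replicate 2 to 14.6% in replicate 4.

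Clusters differed among themselves. The 7 tRNA genes of a cluster on X, of tRNA:Arg-TCG and tRNA:Ser-CGA types, had no summit in any list. The 7 genes of the tRNA:Ile-AAT and tRNA:Leu-CAA cluster on 2R had no optimal summit, but 4 had a pooled summit, and replicates 2, 3 and 4 marked 4, 4 and 1 of them. In the 6-gene cluster of tRNA:Cys-GCA and tRNA:Lys-CTT genes on 3L, 4 had an optimal summit, all from the same peak, and replicates 2, 3 and 4 marked 5, 4 and 0.

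The 8 summits at coding promoters carried more signal than the 7 others. Signal was compared as relative signal, the deposited signal of the best overlapping replicate peak over the median among the 5806 highest peaks of the same replicate, so that 1 is that median. The 8 ranked 191 to 2854 in the pooled list with a median of 739, against a median of 2615 for all 2970 optimal summits near a coding TSS. The 7 ranked 2877 to 5479 with a median of 3500, against 3168.5 for all 2836 optimal summits without a coding TSS. The groups did not overlap in rank, and no test was made of the difference. All 3 replicates had an overlapping peak for 7 of the 8 and for 3 of the 7, and in all 3 it was among the 5806 strongest for 7 of the 8 and for 1 of the 7.

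The strongest was at chr3R:8669215-8669550, 211 bp upstream of tRNA:Tyr-GTA-1-8, a tyrosine tRNA gene, and 233 bp from the TSS of CG8036. Replicates 2, 3 and 4 gave it relative signals of 4.08, 5.89 and 4.45, averaging 4.81 ± 0.958 (SD, n = 3). It ranked between 118 and 271 in every replicate.

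The peak at chrX:6744092-6744445, 217 bp from tRNA:Phe-GAA-1-2, stood 16 bp from the TSS of RpL17, which encodes a protein of the large ribosomal subunit. Replicate 2 gave it a relative signal of 2.74, replicate 3 gave 3.21 and replicate 4 gave 4.58, averaging 3.51 ± 0.959 (SD, n = 3). A peak 275 bp from tRNA:Trp-CCA-2-2, and also within 500 bp of tRNA:Gly-GCC-1-9, stood 12 bp from the TSS of CG30122. Its values were 2.90, 1.96 and 2.95, with a mean of 2.60 ± 0.557 (SD, n = 3). At both summits the start site of the coding gene was closer than the tRNA gene.

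The peak at chr2L:8541903-8542159 lay 104 bp from the TSS of Sema1a, a semaphorin that guides axons, and 211 bp from tRNA:Asp-GTC-1-5, with tRNA:Asp-GTC-1-4 also in range. Its relative signal went from 1.62 in replicate 2 to 2.88 in replicate 3 and 3.29 in replicate 4, averaging 2.60 ± 0.873 (SD, n = 3), the lowest in replicate 2. The peak 393 bp from tRNA:Val-CAC-2-5 was 434 bp from the TSS of Naam, a nicotinamidase gene, and had 1.99, 2.33 and 2.16, a mean of 2.16 ± 0.169 (SD, n = 3). Both distances were the longest among the 8.

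The values of tRNA:His-GTG-1-3, 178 bp from its summit with CG8490 at 72 bp, were 2.07, 1.97 and 2.07, with a mean of 2.04 ± 0.0584 (SD, n = 3). This was the smallest spread among the optimal summits at tRNA genes that overlapped a peak in all 3 replicates. Those of tRNA:Leu-TAA-2-1, 217 bp from its summit with CG13605 at 358 bp, were 1.60, 2.07 and 1.99, with a mean of 1.89 ± 0.249 (SD, n = 3). The peak 115 bp upstream of tRNA:Thr-AGT-1-4, 372 bp from CG31279, overlapped none in replicate 2 and had 0.802 in replicate 3 and 1.47 in replicate 4.

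Among the summits with no coding TSS nearby, replicate 4 was missing or low more often. Of the 7, 5 were among the strongest peaks of replicate 2, 6 of replicate 3 and 2 of replicate 4. The best ranked lay 81 bp from tRNA:Glu-TTC-1-5, whose nearest coding TSS, of CG8517, was 13303 bp away, with 0.993 in replicate 2, 0.782 in replicate 3 and no overlapping peak in replicate 4. The peak 318 bp from tRNA:Ala-TGC-2-1, 1989 bp from CG10939, had 0.856, 0.910 and 0.716, a mean of 0.827 ± 0.0998 (SD, n = 3). It was the only one of the 7 among the 5806 strongest in all 3 replicates.

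The tRNA:Arg-CCT-1-2 and tRNA:Arg-CCT-1-3 genes shared a summit, 4353 bp from CG16898, with 1.17, 0.650 and 0.356 and a mean of 0.727 ± 0.415 (SD, n = 3). The summit 211 bp upstream of tRNA:Gln-TTG-2-1, at chrX:3427692-3427808 and 8073 bp from CG14269, went the other way, with 0.382, 1.44 and 1.30 and a mean of 1.04 ± 0.576 (SD, n = 3). It was the only one of the 7 that was low in replicate 2 alone.

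The other 3 summits overlapped no peak of replicate 4. The summit of tRNA:Ser-TGA-1-1 and tRNA:Ser-TGA-2-1, 2084 bp from l(2)k09913, had 1.08 in replicate 2 and 0.509 in replicate 3. That of tRNA:Val-CAC-1-1, 1404 bp from CG14324, had 0.566 and 0.611. The summit at chr3L:3096019-3096398, among tRNA:Cys-GCA-1-1, tRNA:Cys-GCA-1-2, tRNA:Cys-GCA-1-3 and tRNA:Lys-CTT-1-12 and 10749 bp from Cht7, a chitinase gene, had 0.835 and 0.712.

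**Figure D3:**
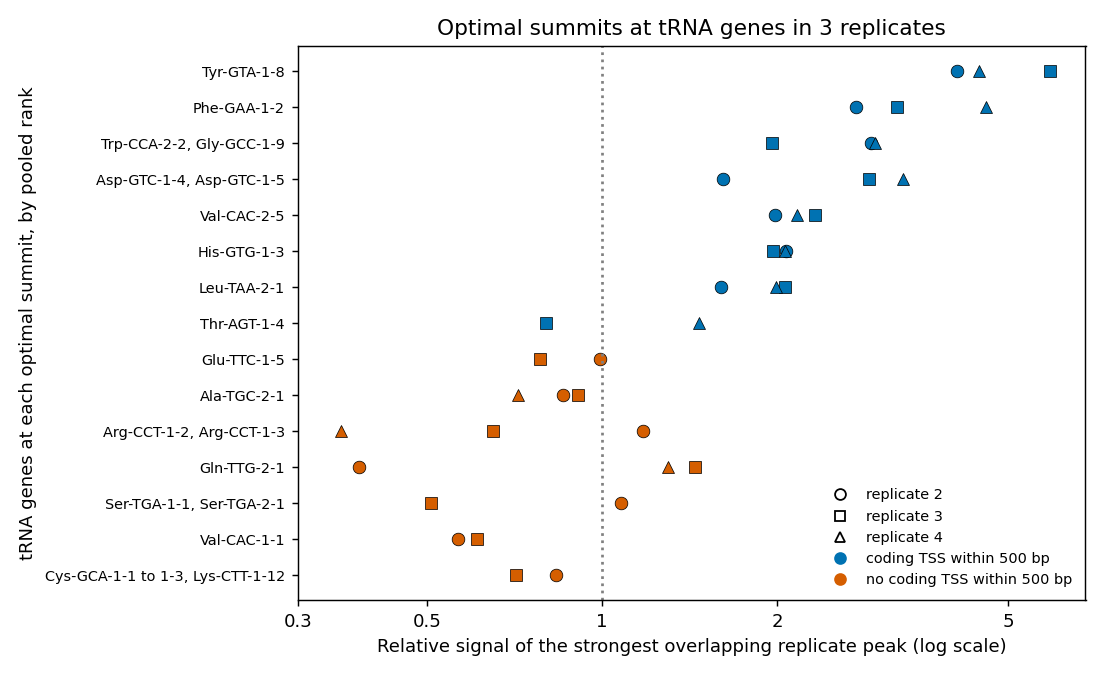
Relative signal (log scale) of the strongest overlapping peak in replicates 2, 3 and 4 for the 15 optimal summits at tRNA genes, ordered by pooled rank, with 1 as the median of the 5806 strongest peaks. The 8 summits near a coding TSS stand at the top, and 7 of them are above 1 in all 3 replicates. The 7 others lie between 0.356 and 1.44, and 4 of them have no replicate 4 point.

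The 2 kinds of peak also differed in length. A fixed length of 380 bp was given to 46.7% of all optimal peaks and 89.4% of all pooled peaks, and in 2711 of the 2713 such optimal peaks the summit was the midpoint. None of the 8 peaks at coding promoters had that length, and 5 of the 7 others did, as did all 72 pooled peaks at tRNA genes below the optimal list. The 8 peaks all ranked above the 7 others, so kind of peak and rank cannot be told apart here. Distances to tRNA genes from peaks of the fixed length are distances from a midpoint.

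Outside the optimal list, 80 genes had only a pooled summit. At all tRNA genes together, those with an optimal summit included, 72 pooled summits lay below the optimal list, 66 of them with no coding TSS nearby. They ranked from 5952 to 29149 with a median of 17064. A peak of replicate 2 overlapped 76.4% of these summits' peaks, against 64.8% of all 24193 pooled peaks below the optimal list. In replicate 3 the shares were 68.1% and 68.2%, and in replicate 4 they were 44.4% and 58.1%. The share of pooled summits at tRNA genes was counted by rank. It was 0.258% among the first 5806, 0.339% from rank 5807 to 12000, 0.317% to 18000, 0.283% to 24000 and 0.250% in the last 5999. Among summits with no coding TSS nearby it was 0.247%, 0.441%, 0.410%, 0.299% and 0.269%, lowest in the first 5806.

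The strongest of these without a coding TSS nearby was 225 bp from tRNA:Asp-GTC-1-6, rank 5952, with relative signals of 0.608, 0.330 and 0.450 in replicates 2, 3 and 4. The shared summit of tRNA:Leu-CAG-1-5 and tRNA:Leu-CAG-1-6, rank 6221, had 0.650 and 0.503 in replicates 2 and 3 and no peak in replicate 4. That of tRNA:Leu-TAA-1-1, rank 6256, had 0.518, 0.503 and 0.496, and that of tRNA:Lys-TTT-1-1, rank 6313, had 0.476, 0.669 and 0.672. All of these lay below the median of the strongest peaks in every replicate.

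The threshold of 500 bp divided close neighbours. Just inside it, tRNA:Cys-GCA-1-1 lay 401 bp, tRNA:Asp-GTC-1-4 420 bp and tRNA:Gly-GCC-1-9 444 bp from an optimal summit. Just outside, tRNA:Leu-CAA-2-2 lay 563 bp, tRNA:Glu-TTC-1-6 602 bp, tRNA:Arg-TCT-1-1 608 bp and tRNA:Ile-AAT-1-9 631 bp away. The median distance from a tRNA gene to the nearest optimal summit was 8582 bp, and 71 genes had one within 2000 bp.

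The optimal summits near tRNA genes lay outside the genes, which take up a small part of the window searched. Of 22 pairs of gene and summit, 14 summits were upstream of the 5′ end, 8 downstream of the 3′ end and 0 inside. With a median gene of 73 bp and a window of 500 bp to each side, few summits would lie inside by position alone. Optimal peaks, as distinct from their summits, overlapped 4 genes, all through peaks of the fixed length of 380 bp. In the pooled list, 67 of 113 pairs were upstream, 10 inside and 36 downstream, 59.3% upstream. Among pooled pairs of lone genes, where a neighbouring tRNA gene cannot set the side, 21 of 38 were upstream, 4 inside and 13 downstream. In the full lists, 110 of 191 pairs were upstream in replicate 2, 75 of 139 in replicate 3 and 35 of 66 in replicate 4. Among lone genes the upstream pairs were 21 of 42 in replicate 2, 18 of 40 in replicate 3 and 22 of 39 in replicate 4, so that no side led throughout.

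**Figure D4:**
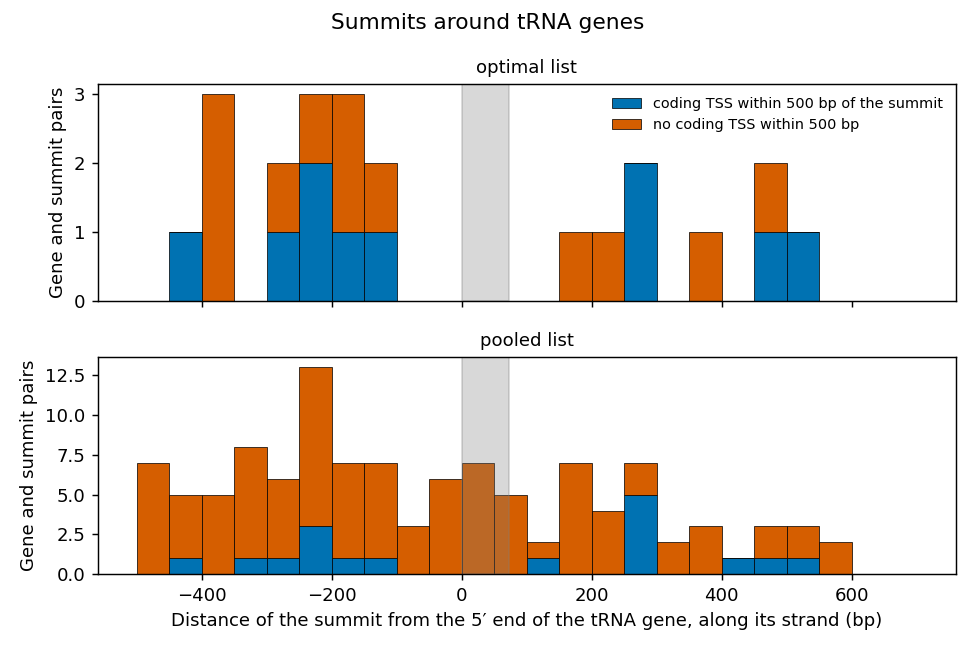
Distance of summits from the 5′ end of the tRNA gene, along its strand, for 22 optimal and 113 pooled pairs of gene and summit in bins of 50 bp, with the median gene length shaded. No optimal summit falls in the shaded gene body, and 67 of the 113 pooled pairs lie upstream.

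Optimal summits were counted by the distance of the gene to a coding TSS, which bears on the same 500 bp that separate the kinds of summit. Of the 33 tRNA genes with a coding TSS within 500 bp of the gene, 8 had an optimal summit, 24.2% with an interval of 11.1 to 42.3%. The share of all protein-coding genes with an optimal summit within 500 bp of a TSS was 26.1%, 3643 of 13945. Of the 257 other tRNA genes, 14 had one, 5.45% with an interval of 3.01 to 8.97%. Pooled summits varied less with the distance, from 42.4% of the 33 genes to 35.9% of the 92 with a coding TSS beyond 500 and up to 2000 bp and 33.3% of the 165 beyond 2000 bp. Of 134 genes inside a coding gene, 8 had an optimal summit, and of 156 outside, 14 did.

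Optimal summits were spread thinly over 16 of the 22 amino acid groups, with 1 to 3 genes each. The highest count was 3 of 7 tRNA:Cys genes, all at the same summit. The arginine group, with 26 genes the largest, had 2 with an optimal and 10 with a pooled summit. Alanine had 1 and 9 of 17, leucine 1 and 9 of 22, valine 2 and 7 of 15, and aspartate 2 and 5 of 14. Asparagine, isoleucine, proline, elongator methionine, initiator methionine and selenocysteine had no optimal summit among 10, 11, 17, 6, 6 and 1 genes. Of these, all but the selenocysteine gene's group had at least 1 gene with a pooled summit.

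**Figure D5:**
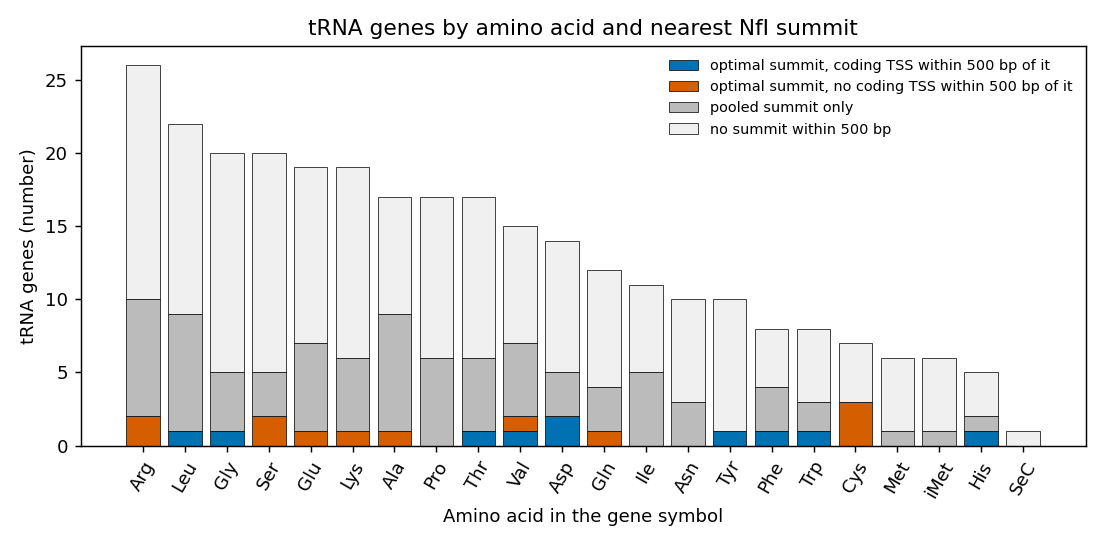
Number of tRNA genes in each of the 22 symbol groups, by whether the nearest kind of summit is optimal with a coding TSS within 500 bp, optimal without, pooled only or none. Optimal summits are thinly spread, with at most 3 genes in a group, and pooled summits occur in all groups but that of selenocysteine.

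Identical copies of a tRNA gene differed in whether a summit lay nearby. Such copies may share reads, and how those reads were placed is unknown here. The 290 genes have 95 distinct sequences, of which 43 occur in more than 1 copy and account for 238 genes. All 11 of the families with an optimal summit had it in only some copies. Pooled summits were found in some copies of 34 families, in all copies of 1 and in none of 8. Among the 12 copies of tRNA:Asp-GTC-1, in 9 loci, 2 copies had an optimal and 5 a pooled summit. Only 1 of 6 tRNA:Val-CAC-2 copies, tRNA:Val-CAC-2-5, had an optimal summit. In both of these families the optimal summit had a coding TSS within 500 bp, so its signal cannot be assigned to the tRNA gene alone. Of the 4 tRNA:Cys-GCA-1 copies, the 3 around the same peak had one and tRNA:Cys-GCA-1-4, further along the cluster, did not. Of the 52 genes with a unique sequence, 7 had an optimal summit, 13.5% with an interval of 5.59 to 25.8%, against 15 of 238 with copies, 6.30% with an interval of 3.57 to 10.2%. The intervals overlap.

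The promoter elements of the gene itself were present in genes with and without summits. The B box core was present in all 10 genes at optimal summits with a coding TSS, in all 12 at those without, in 72 of 80 with only a pooled summit and in 177 of 188 with none. The A box core TNGCNNAG was present in 4, 5, 41 and 94 of these.

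Motifs were counted on both strands within 100 bp of each summit, and a match is only a description of the letters. TTGGC was found in 3 of the 8 windows at coding promoters and in 1 of the 7 others, against 35.6% of all optimal windows. TTGGCA, which contains TTGGC, was found in 1 of the 15, at tRNA:Val-CAC-1-1, against 13.4%. The palindrome of TTGGC and GCCAA with a spacing of 5 was in none of the 15 and in 0.0689% of all optimal windows. TATCGATA, the site of the promoter factors DREF and BEAF-32, was in the windows at tRNA:His-GTG-1-3 and at tRNA:Trp-CCA-2-2, both at coding promoters, against 8.59% of all optimal windows near a coding TSS and 0.494% of those without. GGTCACACT, a core promoter element known as Motif 1, was in none of the 15, against 2.34%.

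In the windows of the 72 pooled summits below the optimal list, TTGGC occurred in 43.1%, against 46.1% of all such pooled windows, and TATCGATA in 0, against 1.37%. The B box core occurred in 26.4% of them, against 6.17%. A window holds part of a tRNA gene only where its summit lies within 100 bp of that gene, as some of the 72 do. The B box core was in 2 of the 8 optimal windows at coding promoters and in none of the 7 others. The shares of all optimal windows of those kinds were 7.27% and 6.06%. All 8 summits at coding promoters lay over 100 bp from the nearest tRNA gene, so these 2 matches are outside tRNA genes. The A box core TNGCNNAG occurred in 40.3% of the 72 pooled windows, against 29.8% of all such pooled windows. It was in 1 of the 8 optimal windows, against 28.2% of all optimal windows near a coding TSS. Of the 7 others 4 held it, against 27.5% of all optimal windows without a coding TSS. These 4 summits lay 81, 211, 112 and 147 bp from the nearest tRNA gene. Only the first window, at tRNA:Glu-TTC-1-5, reached a tRNA gene, at its 3′ end, so the other matches are outside tRNA genes.

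Among other genes transcribed by RNA polymerase III, optimal summits lay at U6 and 7SK genes. Of 105 such genes, 96 of them 5S rRNA, 3 had an optimal and 4 a pooled summit, and no 5S rRNA gene had either. The 3 are 2.86% with an interval of 0.593 to 8.12%, which includes the 4.12% of arm bases and the 5.58% of other short genes. However, the 96 5S rRNA genes lie side by side on 2R, so the 105 genes are not independent. The share rests largely on that array. How reads from repeated genes were placed is unknown here, so the lack of a summit there does not show that NfI is absent. The other short genes also include 98 rRNA genes, of which 0 had an optimal summit. The share among the few genes outside the 5S rRNA group was not compared with a background. The U6 spliceosomal RNA genes snRNA:U6:96Ab and snRNA:U6:96Ac shared a summit of pooled rank 1509, which overlapped a peak of replicate 2 only, at a relative signal of 1.46. snRNA:7SKa, whose RNA holds back the elongation factor P-TEFb, had a summit of rank 2666 with 1.61 in replicate 2, 0.630 in replicate 3 and 0.615 in replicate 4, averaging 0.951 ± 0.569 (SD, n = 3), highest in replicate 2.

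Of 20 matched genes for RNA polymerase III, its assembly factors and La, 8 had an optimal summit within 500 bp of a TSS. The interval of this share, 19.1 to 63.9%, includes the 26.1% of all protein-coding genes. Bdp1, a TFIIIB subunit, ranked 172 with 6.41, 3.75 and 3.92, a mean of 4.69 ± 1.49 (SD, n = 3). Brf, another TFIIIB subunit, ranked 240 with 5.34, 3.49 and 3.62, a mean of 4.15 ± 1.03 (SD, n = 3). Both were highest in replicate 2, and both stood in the range of the 2 strongest tRNA summits. Polr3E, a polymerase subunit gene, ranked 355 with 4.77, 3.50 and 1.72, a mean of 3.33 ± 1.53 (SD, n = 3). Among the others, Polr1D had a mean of 1.08 ± 0.195, La, which binds the ends of new transcripts, of 1.04 ± 0.346 and Polr3D of 0.557 ± 0.175 (SD, n = 3 each). Pbp45, a subunit of the complex that recognises small nuclear RNA promoters, overlapped no peak of replicate 2 and had 0.311 and 0.535 in replicates 3 and 4.

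Of 12 tRNA processing and modification genes, 3 had an optimal summit. They were RNaseZ, which trims the 3′ end of the transcript, with a mean relative signal of 0.785 ± 0.535, and the methyltransferase genes Mt2 with 0.474 ± 0.306 and Nsun2 with 0.596 ± 0.0363 (SD, n = 3 each). RNaseZ had 1.40 in replicate 2, 0.414 in replicate 3 and 0.544 in replicate 4, so that it was above the median of the strongest peaks in replicate 2 only. The interval of the share, 5.49 to 57.2%, includes the 26.1% of all protein-coding genes.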

How the data were processed

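The peak lists were used as deposited, in dm6 coordinates per the labels. For each peak the authors deposited a signal, a −log10 q-value and the summit's offset. No aligner or peak caller is given in the sources used here. Fragments had been sonicated, with a labelled size range of 200 to 800. Genes came from Ensembl release 115 (BDGP 6.54) and sequence from the dm6 reference, with coordinates also compared with RefSeq. Peaks were ranked by signal, matched between lists by at least 1 bp, and counted with Python 3.11.15, pandas 2.3.3, numpy 2.4.6 and scipy 1.17.1, tested on simulated data. No tests were made, and p-values were not computed. Named are all tRNA genes with an optimal summit, the 5 strongest without, the nearest coding genes, and other RNA polymerase III and machinery genes with an optimal summit. The values of 1 machinery gene are not reported here. The processing genes and clusters were named after their values were seen. Members and lists were chosen with earlier results of these data known. Polr3GL and Qtrt2 matched no gene, and snRNA:7SKa was matched through a synonym.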

Additional observations from a re-analysis of the deposited data

How the results depend on the processing

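The 4 counts of tRNA genes (optimal, optimal without a coding TSS, pooled, pooled without a coding TSS) were 22, 12, 102 and 85. At 250 bp they were 12, 6, 66 and 55, at 1000 bp 38, 23, 161 and 138, and where the peak had to overlap the gene 4, 4, 43 and 42. Background shares were not computed for these or the settings below, so the counts are not set against arm bases or other short genes. With identical sequences counted once, the pooled counts were 52 and 47 of 95 distinct sequences. Optimal summits matched among the strongest peaks of every replicate left 10 genes, and 1 without a coding TSS. A pooled q-value limit of 0.01 left 36 and 23, and those matched in every replicate 32 and 21. Requiring a match only in the other replicates gave, for the 4 counts, 12, 2, 39 and 26 without replicate 2, then 10, 1, 37 and 25 without replicate 3, and 17, 8, 64 and 51 without replicate 4. The optimal and pooled lists themselves still drew on all 3 libraries. Measuring from the 5′ end, or other TSS distances, moved no count by over 1.5 times. No paired analysis was possible because the 3 libraries form 1 group. Depth and the placing of reads from identical copies are unknown, so a missing peak does not show that NfI is absent.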
